A study of Mus musculus with 18 samples.

Results

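The genes described here were 2428 of the 21951 protein-coding genes of GENCODE release M21, called overlap genes below. They were chosen by peak lists of wild-type (WT) B cells. In at least 2 of the 3 WT replicates, a KDM2A peak and an H3K36me2 peak of the same replicate number shared at least 1 base within 2 kb of a transcription start site (TSS) of the gene. They made up 11.1% of coding genes and 23.2% of the 10481 coding genes with a KDM2A peak near a TSS in at least 2 WT lists. They were set beside 1564 KDM2A-only genes, whose TSS window held a KDM2A peak in at least 2 WT lists and an H3K36me2 peak in none. The other 6489 genes with KDM2A in at least 2 WT lists met neither rule.

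The libraries came from ChIP-seq of splenic B cells of Mir155-sufficient mice (WT) and of Mir155-deficient mice (KO) on a C57BL/6J background, purified by depletion of cells with CD43, CD4 or Ter119. Cultures of both groups ran for 2 days at 1% O2 and 5% CO2, and held an antibody to CD40 at 1 µg/ml, F(ab')2 fragments against IgM at 5 µg/ml and interleukin 4 at 4 ng/ml. Each genotype had 3 KDM2A and 3 H3K36me2 peak lists, with chromatin input of 13.5 µg for the former and 1 µg for the latter, and replicate 1 was male while replicates 2 and 3 were female. The methods of the study give a range of ages, in weeks, for its mice as a whole and none for these groups, and do not say whether a replicate was 1 animal or a pool, so p-values measure the spread between these libraries only.

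KDM2A is a JmjC-domain demethylase that removes methyl groups from lysine 36 of histone H3, with the dimethylated form, H3K36me2, as its main substrate. Its zinc finger CXXC domain binds unmethylated CpG dinucleotides, which places it on CpG islands, the CpG-rich stretches found at most promoters of widely expressed genes. H3K36me2 is written by NSD-family enzymes, spreads over broad domains between and within genes, and is typically scarce on CpG island promoters. Promoters at which the enzyme and its substrate were both called in the same cultures are therefore the ones examined here. MiR-155 is a microRNA induced in activated B cells and targets Kdm2a mRNA, and the study asked how its loss changes where KDM2A and H3K36me2 lie.

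To show what the DNA under the shared peaks looks like, the central 200 bases are given for stretches that lay under both peaks in all 3 WT replicates. CpG dinucleotides are in capitals, and the sequences are read from GRCm38.p6 on the strand of the gene. Tfeb, Lck and Sept9 were among the genes with the longest or most recurrent overlap, and Fam129c and Stub1 lost H3K36me2 from every KO list while KDM2A stayed. The Tfeb, Sept9 and Fam129c stretches lie in introns within these genes, and the Lck stretch lies upstream of the gene in intergenic sequence. The Stub1 stretch also lies upstream of its gene, with its centre 633 bp from the nearest TSS, in an intron of another annotated transcript.
Tfeb (chr17:47757303-47757502, plus strand): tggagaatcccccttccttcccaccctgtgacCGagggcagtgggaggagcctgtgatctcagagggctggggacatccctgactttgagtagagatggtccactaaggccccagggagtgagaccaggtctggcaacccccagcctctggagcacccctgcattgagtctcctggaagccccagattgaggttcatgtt
Lck (chr4:129573748-129573947, minus strand): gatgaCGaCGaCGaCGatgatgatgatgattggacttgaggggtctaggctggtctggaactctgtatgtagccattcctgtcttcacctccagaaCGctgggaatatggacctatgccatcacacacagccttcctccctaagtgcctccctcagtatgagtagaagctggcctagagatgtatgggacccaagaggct
Sept9 (chr11:117327028-117327227, plus strand): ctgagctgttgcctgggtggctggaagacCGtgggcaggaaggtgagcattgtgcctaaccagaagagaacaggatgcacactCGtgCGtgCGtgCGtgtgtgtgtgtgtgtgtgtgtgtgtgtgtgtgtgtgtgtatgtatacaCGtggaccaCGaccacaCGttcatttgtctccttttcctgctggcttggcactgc
Fam129c (chr8:71598244-71598443, plus strand): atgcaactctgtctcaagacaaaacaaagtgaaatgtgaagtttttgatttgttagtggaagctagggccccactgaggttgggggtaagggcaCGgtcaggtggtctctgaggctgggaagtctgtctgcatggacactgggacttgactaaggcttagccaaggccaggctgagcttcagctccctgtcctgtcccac
Stub1 (chr17:25833938-25834137, minus strand): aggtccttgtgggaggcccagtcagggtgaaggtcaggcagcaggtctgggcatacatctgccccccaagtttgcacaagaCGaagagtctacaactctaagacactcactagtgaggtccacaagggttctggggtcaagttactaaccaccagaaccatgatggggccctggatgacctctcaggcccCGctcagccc

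For comparison, the same is shown for Chd2, a KDM2A-only gene with a KDM2A peak in all 6 lists and no H3K36me2 peak in any. The stretch is the middle of the bases under KDM2A in all 6 lists and lies in an intron.
Chd2 (chr7:73537778-73537977, minus strand): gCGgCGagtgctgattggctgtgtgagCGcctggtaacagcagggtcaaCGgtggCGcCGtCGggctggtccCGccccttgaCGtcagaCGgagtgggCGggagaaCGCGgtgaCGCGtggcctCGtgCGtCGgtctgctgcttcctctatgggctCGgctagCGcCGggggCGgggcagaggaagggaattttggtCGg

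The 5 stretches under both peaks held 1, 5, 8, 1 and 2 CpG in 200 bases, in the order shown. The Chd2 stretch held 23. These are single examples, and the CpG content of all such bases is given below.

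The overlap was short and its length varied. The second-largest WT overlap, the value on which the choice rested, had a median of 390.5 bases, and in 148 overlap genes (6.10%) it was under 50 bases. Just inside the rule were Elof1, with 0, 1344 and 1 shared bases in WT replicates 1, 2 and 3, Timm50 with 1, 266 and 0, and Plxdc1 with 2, 0 and 442. Just outside it were genes with a long overlap in a single replicate, Tmem63a with 3334 bases in WT replicate 3, Akt1 with 3064 in replicate 2 and Myl4 with 2752 in replicate 1. Overlap was called in all 3 WT replicates at 904 of the overlap genes (37.2%) and in exactly 2 at 1524. A further 2989 coding genes had it in 1 WT replicate. At 693 overlap genes (28.5%) the TSS window shared bases with the window of another overlap gene, so 1 overlap could count for both.

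Overlap genes were spread over all autosomes. They made up between 5.26% and 18.8% of the coding genes of an autosome, with the largest share on chromosome 11. None lay on the X chromosome, which has 948 coding genes. The lists held few X peaks, between 0.249% and 0.991% of KDM2A peaks and between 0.131% and 0.677% of H3K36me2 peaks, and at most 3 X genes had an overlap in any library.

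The first question was whether the 2 classes keep their H3K36me2 state in libraries that did not choose them. Because WT lists chose the genes, each WT replicate was scored for genes chosen by the same rule in the other 2 WT replicates (held-out scoring, with 1264, 1588 and 1384 overlap genes for replicates 1, 2 and 3). For this question KO lists were scored for the full lists. An H3K36me2 peak lay in the TSS window of 93.0%, 90.5% and 93.1% of held-out overlap genes in WT, and of 86.5%, 42.2% and 49.4% of overlap genes in KO replicates 1, 2 and 3. Over all coding genes such a peak lay at 39.3%, 40.5% and 41.4% in WT and 38.6%, 16.1% and 17.7% in KO. The lower share in the female KO libraries was thus not particular to overlap genes. Of KDM2A-only genes, 29.3%, 29.8% and 31.5% held an H3K36me2 peak in the held-out WT replicates and 20.5%, 3.20% and 3.07% in KO. Overlap genes were higher in 6 of 6 libraries, by 56.2 ± 10.9 percentage points (mean ± SD of the difference, n = 6; two-sided exact sign-flip permutation test, p = 0.03125, the smallest that 6 libraries allow; adjusted p = 0.0469 over 18 tests). The difference ran from 39.0 points in KO replicate 2 to 66.0 in KO replicate 1. It was 56.9 points among genes with a single TSS, whose windows are all of 1 width, 54.3 among genes with a CpG island in the window and 67.4 among genes without. With peaks of a −log10 q of at least 2 only, it was 30.5 points (exact p = 0.03125). Even so, about 30.2% of genes picked as KDM2A-only in a pair of WT replicates held H3K36me2 in the third, so that class was not free of the mark.

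The overlap itself recurred at most held-out WT genes and at fewer KO genes. It was called at 71.5%, 56.9% and 65.3% of overlap genes in held-out WT replicates 1, 2 and 3. The same 3 gene sets, averaged, gave 43.7%, 11.0% and 21.6% in KO replicates 1, 2 and 3. Every KO library lay below every WT library, and the means were 64.6 ± 7.32% for WT and 25.5 ± 16.7% for KO (3 libraries each, SD). The difference was −39.1 points, with p = 0.1 by a two-sided exact permutation test and adjusted p = 0.112, and 3 against 3 libraries allow no smaller p. KO replicate 1, the male pair, stood closest to WT, and its H3K36me2 list held 106720 peaks against 37447 and 45180 in the female KO lists and 85387 to 94136 in WT. Without it the difference was −48.3 points, and with equal numbers of the strongest peaks taken from every list it was −20.2 points. A peak list of a bulk culture cannot tell fewer cells with a mark from less of it per cell. Read depth was not known, and its part in the peak numbers was not tested.

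**Figure D1:**
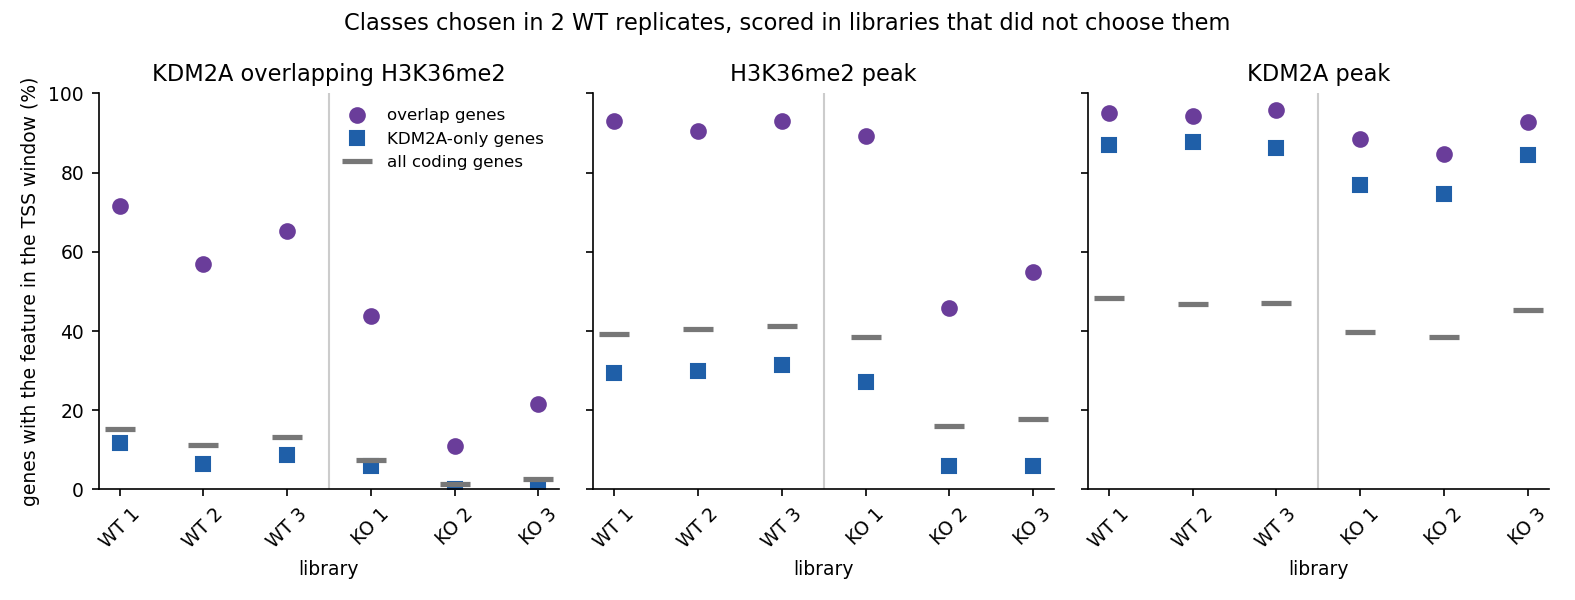
Share of genes with each feature in the TSS window (%, y axis) in each of 6 libraries (x axis). Circles are overlap genes, squares KDM2A-only genes, both chosen in pairs of WT replicates and scored in libraries that did not choose them (KO averaged over the 3 sets), and grey bars all 21951 coding genes. Overlap in KO lies below every WT library, and the male KO library (KO 1) lies closest to WT for H3K36me2.

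The overlap was rarer in KO at all coding genes too. It was called at 15.3%, 11.3% and 13.3% of all coding genes in WT and at 7.51%, 1.37% and 2.74% in KO. Applying the same rule to the KO lists gave 378 genes. Of these, 313 were overlap genes of WT, which is 82.8% of the KO genes and 12.9% of the WT genes. Another 41 had the overlap in 1 WT replicate and 24 in none.

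In the female KO libraries, KDM2A without H3K36me2 was the most frequent state of these promoters. Among the 2428 overlap genes, KDM2A without an H3K36me2 peak was found at 294 (12.1%), 1162 (47.9%) and 1140 (47.0%) in KO replicates 1, 2 and 3. In held-out WT replicates that state held for 6.49%, 9.38% and 6.65% of genes. The state was also more frequent over all coding genes in the female KO libraries, at 6234 and 7118 genes, beside 3374 in KO replicate 1 and 3548 to 3825 in WT. Both peaks present but not touching was the second most frequent state in KO replicates 2 and 3, at 25.9% and 27.7%, and the most frequent in KO replicate 1, at 37.9%. In held-out WT it made up 17.1%, 28.1% and 23.9%. H3K36me2 without KDM2A was found at 12.4%, 7.58% and 4.98% in KO, and neither peak at 1.40%, 9.97% and 3.67%. Over the 3 KO lists together, 1790 overlap genes (73.7%) had KDM2A in every list and 644 (26.5%) had H3K36me2 in every list. Only 212 (8.73%) lacked H3K36me2 in every KO list, and 175 of these kept KDM2A in all 3. H3K36me2 was present in KO replicate 1 alone among the KO lists at 661 genes. The overlap was missing from every KO library at 1297 genes (53.4%) and was present in all 3 at 54.

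**Figure D2:**
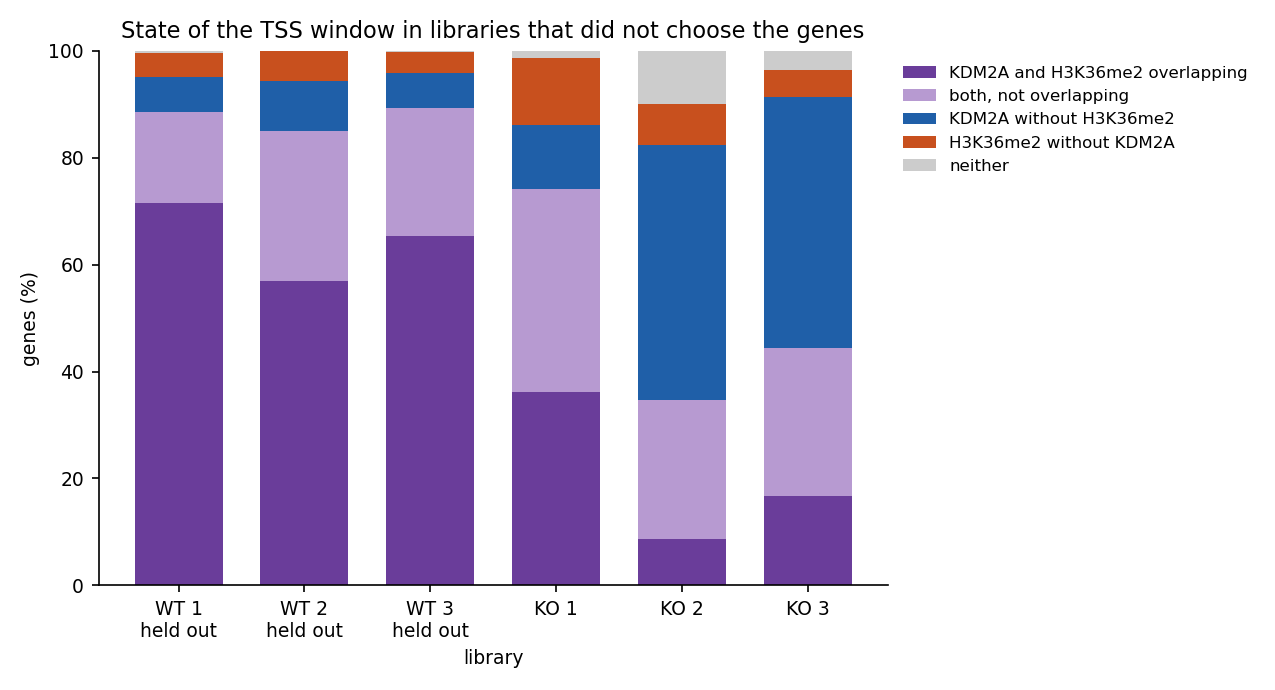
Stacked bars give the share of genes (%, y axis) in each of 5 states of the TSS window by library (x axis), for overlap genes chosen in the other 2 WT replicates (WT bars) or in all WT replicates by the rule (KO bars). KDM2A without H3K36me2 makes up 47.9% and 47.0% in the female KO libraries and 6.49% to 9.38% in WT.

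KDM2A alone was kept at most overlap genes. A KDM2A peak lay in the window at 95.1%, 94.4% and 95.9% of held-out overlap genes in WT. In KO replicates 1, 2 and 3 the full 2428 genes had 86.2%, 82.5% and 91.4%, and the same 3 held-out gene sets, averaged, had 88.4%, 84.7% and 92.9%. The means over the held-out sets were 95.1 ± 0.743% and 88.6 ± 4.10%, a difference of −6.47 points (SD, n = 3 each; two-sided exact permutation test, p = 0.1; adjusted p = 0.112). Over all coding genes the share was also lower in KO, 39.8%, 38.6% and 45.2% against 48.4%, 46.8% and 47.2%, so a lower share was not particular to overlap genes. KDM2A-only genes had 87.0%, 87.8% and 86.1% in held-out WT and, averaged over the same 3 gene sets, 76.8%, 74.7% and 84.6% in KO. That is a difference of −8.26 points with the same p of 0.1 by that exact test. The full 1564 KDM2A-only genes had 67.1%, 63.4% and 75.5% in KO. The KO lists held fewer KDM2A peaks, 15667, 15387 and 21705 against 23372 to 29105 in WT. With equal numbers of the strongest peaks the sign turned, to 0.581 points higher in KO at overlap genes (exact permutation test, p = 0.8). With a −log10 q of at least 2 it was −11.4 points (exact permutation test, p = 0.1).

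At genes that kept a peak in all 6 libraries, no change in peak strength was called. Fold is the caller's ratio of signal over local background, and the highest fold in each window was taken on a log2 scale after centring each library on its median, so a shift shared by all genes cannot be seen. Of 5799 genes with a KDM2A peak in all 6 libraries, limma called 0 at an adjusted p under 0.05 (0% of those tested), and 305 had an unadjusted p under 0.05. For the 1748 overlap genes among them the median difference was −0.00 on the log2 scale, beside 0.00 over all genes tested. Of 1466 genes with H3K36me2 in all 6 libraries, limma also called 0 (0%), with 77 at an unadjusted p under 0.05, and the median of the 628 overlap genes was −0.00, beside 0.01 over all.

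The width of H3K36me2 in the windows showed where the genotypes lay apart. The percent of the TSS window under H3K36me2 was lower in every KO library than in every WT library at 1028 overlap genes (42.3%). Over the 10360 genes with a peak in at least 2 libraries, 23.6% were lower in every KO library. The overlap genes were chosen for H3K36me2 in WT, so this is a description and no test. The median difference of the overlap genes was −15.4 percentage points, beside −7.15 over all genes tested. limma called none of the 10360 genes (0%, smallest adjusted p = 0.274), and 1622 had an unadjusted p under 0.05. Differences as small as these medians are not detectable for single genes with 3 libraries a group, so the absence of calls does not show that coverage was alike. H3K36me2 peaks covered 4.17%, 5.32% and 5.25% of the genome in WT and 3.63%, 1.59% and 1.44% in KO libraries. With coverage divided by that share of the genome, 77.3% of overlap genes had a lower mean in KO instead of 98.1%, and 66.1% of all genes tested instead of 88.5%. The medians of the divided values, KO minus WT, were −1.59 and −0.65, and limma again called 0 genes.

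Around the TSS the 2 peaks had different shapes. Within 400 bp of the most upstream TSS of the overlap genes, 63.6 ± 3.44% of bases lay under KDM2A in WT, beside 23.7 ± 4.28% from 2 to 0.4 kb upstream and 36.1 ± 3.92% from 0.4 to 2 kb downstream (SD, n = 3). H3K36me2 had its highest coverage upstream, with 28.8 ± 1.92% near the TSS, 43.5 ± 2.12% upstream and 30.3 ± 1.06% downstream, and it was 20.7 ± 1.01% from 2 to 10 kb downstream. The step down from upstream to the TSS was present in each WT library, with 28.9%, 26.8% and 30.6% near the TSS in replicates 1, 2 and 3 and 41.6%, 43.2% and 45.8% upstream. From 0.4 to 2 kb downstream the same libraries had 31.0%, 29.1% and 30.8%, close to the values near the TSS. The step was present in each KO library as well, with 16.0%, 4.02% and 4.28% near the TSS and 28.9%, 11.6% and 11.1% upstream. Coverage also extended past the window that chose the genes. From 10 to 2 kb upstream H3K36me2 covered 30.9 ± 2.08% in WT and 13.5 ± 8.14% in KO, while at KDM2A-only genes it covered 4.08 ± 0.583% and 1.75 ± 1.40%. The same WT lists chose both classes by H3K36me2, and a peak in the window can run past its edge. The differences between genotypes and between classes are therefore descriptions.

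**Figure D3:**
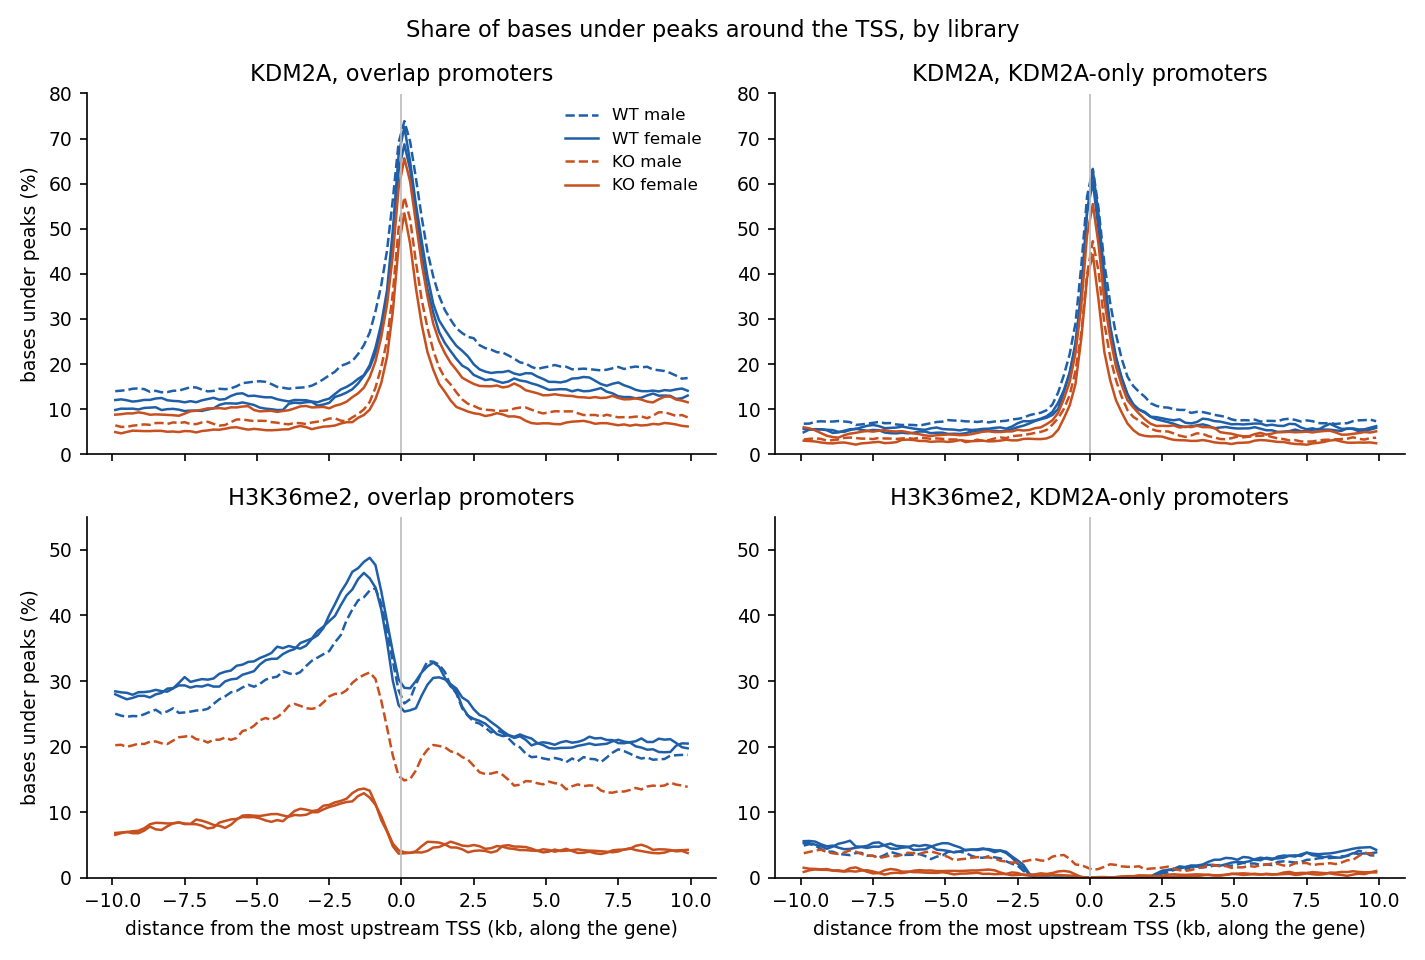
Percent of bases under peaks (y axis, 200 bp bins) by distance from the most upstream TSS (x axis, kb, downstream positive) for overlap and KDM2A-only promoters, 1 line per library, male libraries dashed. KDM2A peaks at the TSS in both classes, and H3K36me2 at overlap promoters is highest upstream, falls towards the TSS, and is lower in KO, most of all in the female libraries. The flat H3K36me2 lines near 0 at KDM2A-only promoters follow from the rule in WT, and the rule also chose the overlap promoters for H3K36me2 in WT.

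The centre of the overlap was farther from the TSS than the centre of KDM2A at KDM2A-only genes. For each library's own overlap genes, the centre of the longest shared stretch was a median of 565, 536 and 497 bp from the nearest TSS of the gene in WT and 477, 695 and 737 bp in KO. At genes with KDM2A and no H3K36me2 in that library, the centre of the KDM2A peak part lay 176, 161 and 164 bp away in WT and 144, 145 and 158 bp in KO. The difference was 426.5 bp. A shared stretch is a part cut from a KDM2A peak, which by itself moves its centre off the peak's centre, so this is a description. The overlap centre was downstream of the TSS at 43.0 ± 5.71% of genes and the KDM2A centre at 53.8 ± 0.683% (SD, n = 6), a difference of −10.7 points with the same sign in 6 of 6 libraries. The overlap share was 46.5%, 46.5% and 45.7% in WT replicates 1, 2 and 3 and 47.5%, 33.7% and 38.2% in KO. The same cut bears on this share, and H3K36me2 coverage was highest upstream, so it is a description as well. In WT replicate 1, 25.6% of the shared bases were exonic and 48.4% intronic. Intergenic bases made up 26.0%, 24.98% and 25.4% for the WT and 23.6%, 37.7% and 37.8% for the KO replicates, so KO lay on both sides of WT.

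CpG content set the shared bases apart from the bases under KDM2A alone in the same windows. Shared bases held 2.88, 3.03 and 3.06 CpG per 100 bp in WT replicates 1, 2 and 3 and 3.36, 2.25 and 1.87 in KO. Bases under KDM2A alone held 4.29, 4.64 and 4.65 in WT and 5.14, 4.78 and 4.21 in KO. Bases under H3K36me2 alone held 1.39, 1.36 and 1.39 in WT and 1.49, 1.31 and 1.16 in KO. The shared bases were thus between the others in 6 of 6 libraries, with a difference of −1.88 to KDM2A alone and of 1.39 to H3K36me2 alone (two-sided exact sign-flip permutation tests, p = 0.03125 each; adjusted p = 0.0469). Computed CpG islands covered 11.97 ± 4.90% of shared bases and 29.0 ± 3.45% of bases under KDM2A alone (SD, n = 6; a difference of −17.04 points with 1 sign in 6 of 6 libraries by the same exact test, p = 0.03125).

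The promoters of overlap genes were also less CpG-rich than those of KDM2A-only genes, and were still above coding genes at large. A CpG island lay in the TSS window of 81.5% of overlap genes, 89.6% of KDM2A-only genes and 59.0% of all coding genes. Over each library's own overlap genes, WT replicates had 81.9%, 80.7% and 81.7% and KO replicates 83.3%, 75.7% and 74.8%. Over each library's own KDM2A-only genes, WT replicates had 87.9%, 89.8% and 88.7% and KO replicates 93.0%, 91.7% and 90.1%. The difference of −10.5 ± 4.25 points, which was −17.9 with a −log10 q of at least 2 and −16.7 at genes with 1 TSS position, had the same sign in 6 of 6 libraries (SD, n = 6; two-sided exact sign-flip permutation test, p = 0.03125; adjusted p = 0.0469). Within 500 bp of the TSS, overlap genes held 4.44 ± 0.204 CpG per 100 bp and KDM2A-only genes 5.39 ± 0.135, lower in 6 of 6 libraries (same test, exact p = 0.03125).

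Overlap genes had more annotated starts, which widens their windows. Each library's own overlap genes had 5.90 ± 0.155 TSS positions and KDM2A-only genes 5.26 ± 0.196 (SD, n = 6), beside 4.26 over all coding genes. The rule looked around every TSS, so more positions make an overlap more likely, and the difference is a description. The share of coding genes that were overlap genes was 4.29% at genes with 1 TSS position, 14.04% at genes with 4 to 6 and 22.1% at genes with 11 or more. The share with KDM2A in at least 2 WT lists rose over the same genes, from 22.1% to 61.1% and 81.7%, so the rise was not particular to overlap genes. Their median length was 19403 ± 1571 bp against 18047 ± 829 bp (SD, n = 6), a difference of 1356 bp with the same sign in 6 of 6 libraries (two-sided exact sign-flip permutation test, p = 0.03125). A head-to-head coding neighbour starting within 1 kb upstream was found at 8.11% of overlap genes, 17.1% of KDM2A-only genes and 6.79% of all coding genes.

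Short motifs were counted on both strands in the 300 bases from 250 bp upstream to 50 bp downstream of the most upstream TSS, each on its own, so that 1 promoter can count for several. The core of ETS-family sites, CCGGAA, stood in 20.8% of overlap promoters, 28.8% of KDM2A-only promoters and 17.5% of all coding promoters. With each library's own genes it stood in 20.6 ± 2.41% and 29.6 ± 0.719% (SD, n = 6), a difference of −8.92 points with the same sign in 6 of 6 libraries (two-sided exact sign-flip permutation test, p = 0.03125; adjusted p = 0.0469). Among genes with a CpG island the difference was −7.69 points. The GC box GGGCGG, bound by SP and KLF factors, stood in 59.4% of overlap promoters, 61.8% of KDM2A-only promoters and 43.0% of all, and the difference over each library's own genes was −4.99 points (exact p = 0.03125; −1.20 points among genes with a CpG island). At genes with 1 TSS position that difference was −6.95 points and missed the test (exact sign-flip, p = 0.0938). The CCAAT box (CCAAT) stood in 37.4%, 38.4% and 39.0% of these classes, the TATA box (TATAAA) in 7.08%, 7.61% and 12.6%, and the E box (CACGTG) in 9.64%, 10.6% and 7.75%. None of these 3 passed the exact test (p = 0.0625, 0.25 and 0.8125). A match says only that the letters are there.

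**Figure D4:**
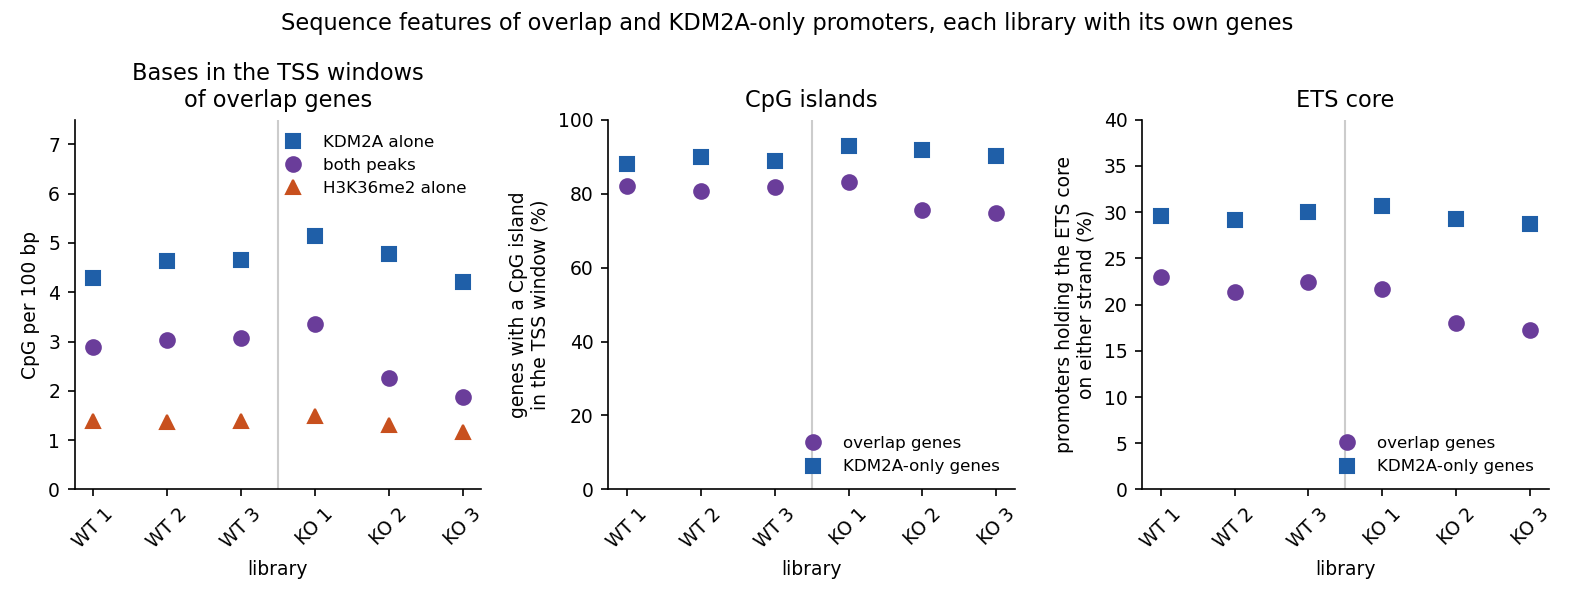
Left, CpG per 100 bp of bases under both peaks, KDM2A alone and H3K36me2 alone in the windows of each library's overlap genes. Middle and right, share of genes with a CpG island and of promoters holding the ETS core (%, y axes) for each library's own overlap and KDM2A-only genes (x axes, library). Shared bases lie between the others, and overlap genes lie below KDM2A-only genes, in all 6 libraries.

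Among named genes, those with the longest WT overlap kept part of it in at least 2 KO libraries. They were picked for their WT values, so a KO value below WT is a description and no test. Cabp4, a calcium-binding protein of the photoreceptor synapse, had 6406, 4484 and 4547 shared bases in WT replicates 1, 2 and 3 and 4320, 0 and 2771 in KO. Unc13a, a synaptic vesicle priming factor, had 4213, 5205 and 4384 in WT and 1066, 603 and 808 in KO. Tfeb, a transcription factor of lysosome genes, had 5307, 2698 and 5110 in WT and 1250, 0 and 40 in KO. Its window was covered by H3K36me2 at 53.1%, 32.4% and 45.2% in WT and 29.6%, 7.36% and 6.44% in KO (difference −29.1 ± 12.9 points, SE; limma adjusted p = 0.310). Plec, a cytoskeletal linker, had 6924, 5778 and 2301 in WT and 4119, 96 and 0 in KO. Sept9, a septin, had 7272, 1251 and 5750 in WT and 3842, 1588 and 1574 in KO, and Sema4a, a semaphorin, 7463, 1972 and 3878 against 2650, 831 and 1254. In these last 3 genes the values of the genotypes overlapped, and in all 6 the male KO library had the longest KO overlap.

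Overlap in all 6 libraries was found at 54 genes, and those with the longest KO overlap are given here. H2-Q6, a nonclassical MHC class I gene of a multigene family whose reads can be shared with its paralogs, had 3845, 2195 and 1418 shared bases in WT and 1500, 1554 and 732 in KO. The genotypes overlapped at this gene. Mzb1, an endoplasmic reticulum protein of B and plasma cells, had 893, 2745 and 988 in WT and 2052, 236 and 1252 in KO, so the genotypes overlapped. Lck, the T cell receptor kinase, had 2214, 2845 and 4310 against 2096, 386 and 741. Fam189b had 1122, 1169 and 2118 against 1126, 1320 and 2541 and the genotypes overlapped too. Overlap in every library was the condition by which these genes were picked.

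The opposite pattern, KDM2A in every KO list and no H3K36me2 in any, was led by Cbarp, Fam129c, Cyren, Stub1, Maz and Lyl1. Stub1, a ubiquitin ligase that acts with chaperones, had H3K36me2 over 1740, 1141 and 1029 bases of its window in WT and 0 in each KO list. Its KDM2A peaks covered 4146, 3941 and 3203 bases in WT and 3659, 2776 and 2250 in KO. Maz, a zinc finger transcription factor, had H3K36me2 over 894, 2360 and 471 bases in WT and 0 in KO, with KDM2A over 4740, 4949 and 4793 bases and 3280, 3985 and 5107 bases. Fam129c, a gene of the B cell lineage, had 1799, 1019 and 677 shared bases in WT, and Lyl1, a basic helix-loop-helix factor, 637, 1498 and 722. The KDM2A folds at Maz were 3.08, 3.99 and 3.29 for the WT and 3.33, 3.31 and 3.57 for the KO libraries, and the log2 difference of the median-centred values, KO minus WT, was 0.05 ± 0.12 (SE; limma adjusted p = 0.983). These genes were picked for 0 in KO, so the values describe them and test nothing.

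**Figure D5:**
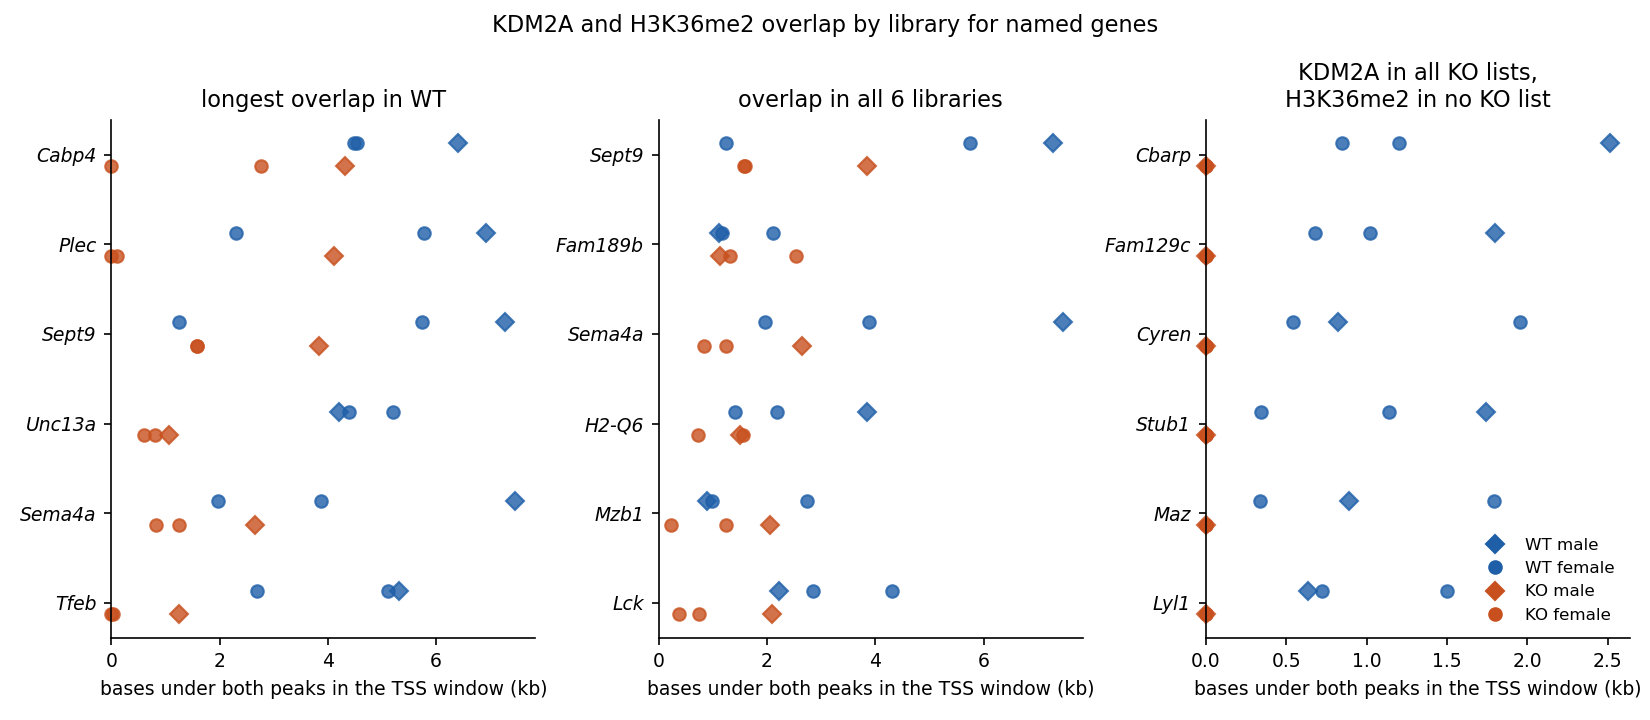
Bases under both peaks in the TSS window (kb, x axis) for 6 genes in each of 3 picked sets (y axis), 1 symbol per library, WT blue, KO orange, male libraries as diamonds. In the left panel the male KO library has the longest KO overlap at each gene, and in the right panel KO is 0 by the choice of genes.

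Ep400, Chd2 and Plekhg2 were among the 4 KDM2A-only genes of highest fold with KDM2A in all 6 lists and H3K36me2 in none. Chd2, a chromatin remodeller, had KDM2A folds of 4.90, 4.83 and 4.10 in WT replicates 1, 2 and 3 against 3.65, 3.92 and 4.03 in KO, and Ep400, another remodeller, 4.38, 4.22 and 4.35 against 3.74, 3.72 and 5.12. Plekhg2 had 4.56, 4.55 and 4.89 against 3.80, 2.70 and 4.604, the lowest value being in KO replicate 2. These genes were picked for their fold, and the class medians lay between 2.88 and 3.10 for KDM2A-only genes and between 2.95 and 3.25 for overlap genes over the 6 libraries.

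Hand-made lists of B cell genes held overlap genes in larger shares than coding genes at large. The share of each list is to be read beside 11.1% of all coding genes and 23.2% of genes with KDM2A in at least 2 WT lists, without a test, since the lists were made with earlier results known. Of 27 genes of B cell receptor and coreceptor signalling, 19 (70.4%) were overlap genes, 0 were KDM2A-only, and all 27 had KDM2A in at least 2 WT lists. At 15 of the 19 the overlap was found in at least 1 KO library. Cd22, an inhibitory coreceptor, had 2568, 777 and 324 shared bases in WT and 426, 712 and 458 in KO, where the genotypes overlapped. Pik3cd, the catalytic subunit of PI3K delta, had 3944, 2062 and 4091 against 265, 0 and 74. Its H3K36me2 coverage differed by −21.5 ± 8.59 points (SE; limma adjusted p = 0.300). Grb2, an adaptor, had 1329, 1003 and 170 against 273, 0 and 265, and the genotypes overlapped.

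Antigen presentation, B cell transcription and signalling lists followed. Of 16 genes of MHC class II presentation 11 (68.8%) were overlap genes, among them H2-Ab1, with 1653, 2805 and 1920 shared bases in WT and 278, 0 and 1622 in KO. Of 24 B cell transcription factors 12 (50%) were. Spi1, which encodes PU.1, had 1253, 1368 and 1205 in WT and 1468, 0 and 112 in KO, and Irf8 1769, 299 and 402 against 1191, 0 and 69. At Spi1 and Irf8 the genotypes overlapped. The list of CD40 and NF-kB signalling had 9 of 23 (39.1%), with Traf1, an adaptor, at 3476, 1375 and 386 against 195, 0 and 0. That of interleukin 4 signalling had 6 of 14 (42.9%), with Il4ra, the receptor chain, at 2752, 661 and 1384 against 2833, 0 and 0, where the genotypes overlapped. The Bcl2 family had 8 of 18 (44.4%), which are 7 pro-apoptotic members and the anti-apoptotic Bcl2l1. Bbc3, which encodes PUMA, had 1419, 594 and 1196 against 716, 0 and 130, and the genotypes overlapped. Of 15 genes described as miR-155 targets in B cells 7 (46.7%) were overlap genes, including Jarid2, a polycomb cofactor, with 700, 1343 and 1179 against 579, 0 and 0. H3K36me2 covered 47.0%, 36.2% and 43.7% of the Jarid2 window in WT and 11.95%, 0% and 2.15% in KO (difference −37.6 ± 11.0 points, SE; limma adjusted p = 0.274).

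The mitochondrial, ribosomal and replication lists lay nearer the 11.1% of all coding genes, and the hypoxia list nearer the 23.2% of genes with KDM2A in at least 2 WT lists. Most genes of these lists carried KDM2A. Of 207 nuclear genes of mitochondrial proteins, 167 had KDM2A in at least 2 WT lists, 20 (9.66%) were overlap genes and 29 KDM2A-only. Mrpl54, a mitochondrial ribosomal protein, had 1341, 902 and 1922 shared bases in WT and 0, 2 and 378 in KO, with the genotypes apart. Of 104 genes of the ribosomal protein list 17 (16.3%) were overlap genes, 2 of them, Rps6ka1 and Rps6kb2, kinases that share the symbol prefix. Of 37 DNA replication genes 4 (10.8%) were overlap genes and 8 KDM2A-only, and of 32 hypoxia and glycolysis genes 6 (18.8%) were overlap genes. Aldoa, a glycolytic aldolase, had 3274, 2390 and 285 against 1249, 0 and 179, and the genotypes overlapped. Zinc finger genes had 33 of 394 (8.38%) and olfactory receptor genes 2 of 1135 (0.176%). Among 26 genes of H3K36 methylation 5 were overlap genes. Kdm2b, the paralog of Kdm2a, had 4926, 2294 and 507 shared bases in WT and 175, 497 and 336 in KO, with the genotypes apart. Of 28 polycomb genes 6 (21.4%) were, with Ring1, a core subunit of polycomb complex PRC1, at 961, 1584 and 885 against 204, 0 and 0.

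The labelled cell type was set beside marker genes. Of 8 B cell markers 7 were overlap genes, and KDM2A lay at between 6 and 8 of the 8 in each library. Of 8 T cell markers 2 were overlap genes, Cd3d and Lck, and KDM2A lay at between 1 and 3. Klf1 was the sole overlap gene of 5 erythroid markers, and none of 4 NK, 7 myeloid and 4 plasma cell markers was. H3K36me2 was not confined to B cell markers. In WT lists it lay at 7 to 8 of the B cell markers, 3 to 6 of the T cell, 2 of the NK, 5 of the myeloid, 1 to 2 of the erythroid and 2 to 4 of the plasma cell markers. A peak is not a transcript, so these counts describe chromatin, and the part of other cells in the results was not tested.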

How the data were processed

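ChIP-seq was performed on 18 samples, and the 12 peak lists of KDM2A and H3K36me2 were used. No list came with the 6 input libraries. Per the submitters' processing notes and the methods of the study, reads were aligned to GRCm38 with BWA and broad peaks were called with MACS2 per library, without pooling, in the nf-core/chipseq pipeline. The deposited fold of a peak is a ratio over local background. The authors also deposited −log10 p and −log10 q, of which the smallest q value was 1.0 on that scale, and a score that was not used. Read counts were not used here, so depth is unknown and no counting interval can be given. Shallower libraries can yield fewer peaks.

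The overlap genes, the comparison class and the gene lists were chosen with earlier results of these data known. TSS positions came from GENCODE M21, and a window reached 2 kb either side of every TSS of a gene. CpG islands were computed from repeat-masked GRCm38.p6 (score of 17 per CpG and −1 otherwise, over 200 bp, GC of at least 50%, observed over expected CpG above 0.6), giving 16305 islands. All 590705 peaks lay within chromosome ends.

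The library was the unit. Values were compared with two-sided exact tests, sign-flip permutation over 6 libraries or permutation of 3 against 3, with Benjamini-Hochberg adjustment over 18 tests at 0.05. The tests on composition, position and motifs were added after the data were seen. Log2 fold and window coverage were fitted over all genes with limma 3.58.1 in R 4.3.3 (lmFit, eBayes with trend, robust for coverage) and tested on simulated data with 200 changed genes. All else was computed in Python 3.11.15 (scipy 1.17.1, pandas 2.3.3, numpy 2.4.6). Named genes were the 6 with the longest mean WT overlap, the 6 with overlap in all 6 libraries and the longest KO overlap, the 6 with WT overlap, KDM2A in all KO lists and H3K36me2 in none with the longest WT overlap, the 4 KDM2A-only genes of highest fold, up to 4 per list by number of overlap libraries and then length, and 3 on each side of the rule's edge, leaving out Gm and Rik symbols. The alternatives tried are given at the end. Some genes that this rule names are not reported here.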

Additional observations from a re-analysis of the deposited data

Results flagged for a closer look

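At 5 named genes the shared bases were longer in the male KO library than in the male WT library, while both female KO libraries lay below both female WT libraries. Spi1 was 215 bases longer in the male KO library (1468 against 1253), where the female values were 1368 and 1205 in WT and 0 and 112 in KO. Mef2b, a B cell transcription factor, was 475 bases longer (1052 against 577). Inpp5d, which encodes the phosphatase SHIP1, was 183 bases longer (583 against 400), Bad, a pro-apoptotic Bcl2 family member, 134 bases longer (785 against 651), and Il4ra 81 bases longer (2833 against 2752). With 1 male library per genotype and antibody this difference between the sexes was not tested. The pattern was found at 180 of the 2428 overlap genes (7.41%). It requires an overlap in both female WT libraries, which by the rule makes a gene an overlap gene, so no other coding gene can show it and the share is a description. The male KO library is also the one whose H3K36me2 list held 106720 peaks, so sex and that library cannot be told apart.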

How the results depend on the processing

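The number of overlap genes was 2428 and of KDM2A-only genes 1564. They became 222 and 5046 with a −log10 q of at least 2, 882 and 3126 with equal numbers of the strongest peaks, 210 and 236 at genes with 1 TSS position, and 904 overlap genes when all 3 WT replicates were required. A window of 1 kb gave 2457 KDM2A-only genes. Choosing in pairs of WT replicates gave 1264 to 1588 overlap genes and 1678 to 1774 KDM2A-only genes. H3K36me2 lists of another replicate number gave 2328 and 2346 overlap genes, so the sharing rested little on the numbering. The KDM2A share at overlap genes, KO minus WT, turned to 0.581 points with equal numbers of peaks and was −11.4 points with a −log10 q of at least 2, and the cause was not tested. That limit also gave 30.5 points for the H3K36me2 difference between classes and −17.9 points for CpG islands. Leaving out each library as a scored library, for which 0.0625 is the smallest p with 5 libraries by the exact test, gave 54.3 to 59.7 points for the H3K36me2 difference between classes, −11.4 to −9.42 points for CpG islands, −1.02 to −0.914 for CpG per 100 bp, 1074 to 1571 bp for gene length and 0.620 to 0.695 for TSS positions. Comparing KO with WT on 5 libraries gave −48.3 to −31.9 points for overlap in KO, −8.58 to −4.48 for KDM2A at overlap genes and −11.2 to −6.26 at KDM2A-only genes.

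For the calls over genes, limma called 2 genes for H3K36me2 fold on percentile ranks and 0 to 1 genes without each library in turn, the 1 call coming without KO replicate 2, and 0 in its other alternatives and in every alternative of the KDM2A fold and H3K36me2 coverage fits. With the replicate block the fits also called 0, and the 3 differences between KO and WT stayed at −39.1, −6.47 and −8.26 points (exact paired sign-flip, p = 0.25, the smallest 3 pairs allow). Replicate numbers gave no shared animal or day, and deviations of same-numbered libraries correlated by between −0.0448 and 0.139 across genes. The E box difference changed sign to 0.325 with the most upstream TSS only, to 0.570 at genes with a CpG island and in the range −0.434 to 0.0964 without each library, and never passed the test. The GC box difference missed it at genes with 1 TSS position (−6.95, exact p = 0.0938), and the TATA box difference reached 1.11 points with the most upstream TSS only (exact p = 0.03125). With unknown depth, a missing peak is not an absent mark.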
